A study of Mus musculus with 59 samples.

Results

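The genes described here are 30 genes of GABA signalling and cortical interneurons, chosen by name out of the 18088 genes measured by RNA sequencing in mouse prefrontal cortex. All 30 were found in the table and all 30 passed the filter on low values, which kept 17901 genes with a normalised count of at least 10 in at least 4 libraries. They comprise 3 genes of GABA synthesis and vesicle loading (Gad1, Gad2, Slc32a1), 9 GABA-A receptor subunits (Gabra2, Gabra3, Gabra4, Gabra5, Gabrb1, Gabrb2, Gabrg1, Gabrg3, Gabrd), 2 GABA-B receptor subunits (Gabbr1, Gabbr2) and 2 genes of the inhibitory synapse (Gphn, Nlgn2). The others are 5 interneuron class markers (Pvalb, Calb2, Reln, Lamp5, Ndnf), 7 transcription factors of interneurons and their precursors (Lhx6, Dlx1, Dlx2, Dlx5, Dlx6, Sp9, Prox1), and Erbb4 and Adarb2.

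The 59 libraries came from C57BL/6J mice that were heterozygous for the I48X allele of Dyrk1a (Het, Dyrk1a+/I48X) or wild type (WT). Dyrk1a encodes a protein kinase. Pups of both genotypes and both sexes received fluoxetine, lithium or vehicle through their mother's milk for 3 weeks, between postnatal days 3 and 24, and the tissue was taken on day 25. Each of the 12 combinations of genotype, drug and sex had 5 libraries, except WT fluoxetine males with 4. The dams and litters behind the pups are not given in the labels used here, so the p-values measure the spread between libraries, and pups that shared a dam cannot be set apart. The labels restrict the I48X allele to no cell type, so its action in interneurons and in other cells cannot be told apart.

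GABA is the main inhibitory transmitter of the mature cortex. It is made from glutamate by the enzymes that Gad1 and Gad2 encode and is loaded into vesicles by the transporter that Slc32a1 encodes. GABA-A receptors are chloride channels built from several subunits around a shared pore, and their subunits set where the channel sits and how it responds: receptors with the delta subunit (Gabrd) lie outside synapses and carry tonic inhibition. GABA-B receptors are obligate pairs of a GABA-binding subunit (Gabbr1) and a subunit that couples to G proteins (Gabbr2). Cortical interneurons are born in the embryonic ganglionic eminences, where Dlx1, Dlx2, Dlx5 and Dlx6 specify GABA neurons, Lhx6 acts in the medial eminence lineage that gives parvalbumin and somatostatin cells, and Prox1 acts in the caudal eminence lineage. The same Dlx genes and Sp9 are also used by the neuroblasts that migrate through life to the olfactory bulb, a neighbour of the frontal cortex.

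The promoter sequences of 4 transcription factor genes are shown because these members are among those that moved furthest up or down between Het and WT vehicle males. RefSeq promoters on GRCm38.p6, running from 250 bases before to 50 bases after a gene's start, were matched to 25 of the 30 genes, with 34 starts in all, and Gabrd, Calb2, Ndnf, Dlx5 and Dlx6 had no entry. Capitals mark GGGCGG or its reverse complement CCGCCC, a motif bound by Sp family factors, and each sequence runs 5′ to 3′ on the gene's own strand. The starts are Dlx1 at chr2:71529195-71529494 on the plus strand, Dlx2 at chr2:71546705-71547004 on the minus strand, Sp9 at chr2:73271676-73271975 on the plus strand, and Lhx6 at chr2:36105359-36105658 on the minus strand, 1 of 3 starts listed for that gene.
Dlx1: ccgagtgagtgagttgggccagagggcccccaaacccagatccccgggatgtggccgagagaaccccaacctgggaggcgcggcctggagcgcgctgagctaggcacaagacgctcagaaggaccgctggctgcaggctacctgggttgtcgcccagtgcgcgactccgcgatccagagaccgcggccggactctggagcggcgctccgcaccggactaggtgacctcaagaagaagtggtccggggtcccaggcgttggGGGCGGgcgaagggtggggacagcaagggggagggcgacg
Dlx2: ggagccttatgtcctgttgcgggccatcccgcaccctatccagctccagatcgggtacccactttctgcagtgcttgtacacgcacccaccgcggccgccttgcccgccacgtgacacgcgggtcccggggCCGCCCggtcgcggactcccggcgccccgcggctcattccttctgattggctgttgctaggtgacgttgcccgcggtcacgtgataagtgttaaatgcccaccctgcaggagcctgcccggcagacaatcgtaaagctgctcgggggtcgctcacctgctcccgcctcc
Sp9: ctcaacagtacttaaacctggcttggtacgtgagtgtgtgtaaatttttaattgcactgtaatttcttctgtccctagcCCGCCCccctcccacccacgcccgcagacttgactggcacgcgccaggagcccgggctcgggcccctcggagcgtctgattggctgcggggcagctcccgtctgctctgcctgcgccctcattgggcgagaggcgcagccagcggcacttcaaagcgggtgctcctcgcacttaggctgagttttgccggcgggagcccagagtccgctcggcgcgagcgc
Lhx6: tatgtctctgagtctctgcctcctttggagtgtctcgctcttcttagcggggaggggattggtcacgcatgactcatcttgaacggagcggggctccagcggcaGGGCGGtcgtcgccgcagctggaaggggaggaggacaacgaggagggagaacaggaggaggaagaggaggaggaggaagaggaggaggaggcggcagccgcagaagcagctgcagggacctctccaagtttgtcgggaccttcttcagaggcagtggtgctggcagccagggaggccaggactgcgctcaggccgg
Each of the 4 sequences held 1 copy of GGGCGG, read on both strands. It was present in 18 of the members' 34 promoters, at 16 of 25 genes, and in 11714 of all 32851 promoters (35.7%). TAATTA, a core that homeodomain factors such as the Dlx proteins can bind and that reads the same on both strands, was in none of the 4 sequences. It was present in 2 of the members' 34 promoters (Adarb2 and Gabrg1), against 1738 of 32851 (5.29%). The Adarb2 promoter held both motifs, and no binding was measured here.

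Several members lie beside each other in the genome (GRCm38). Gabrg1 (70751047 to 70842617), Gabra2 (70957597 to 71095849), Gabra4 (71569749 to 71658308) and Gabrb1 (71658113 to 72149037) form a cluster on chromosome 5, where the annotated ends of Gabra4 and Gabrb1 overlap. Gabrg3 (56716465 to 57387188) and Gabra5 (57407672 to 57510059) adjoin on chromosome 7. Dlx1 and Dlx2 lie on opposite strands of chromosome 2, and Dlx6 and Dlx5 on opposite strands of chromosome 6, where the antisense transcript Dlx6os1 overlaps them. The libraries were made with a stranded kit, and the strand setting of the counting is not given in the sources used here.

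Per kilobase of annotated exon, the highest median levels over the 59 libraries were those of Gabbr1 at 2424 normalised counts per kb, Lamp5 at 1698, Gabbr2 at 1617, Calb2 at 1616 and Gad1 at 1527. The lowest were Sp9 at 68.6 and Prox1 at 33.5 normalised counts per kb. Both GABA-B subunits therefore stood among the most abundant members.

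The members differed widely in how far they ranged across libraries. Sp9 spanned 52.4 to 1287 normalised counts, a highest-to-lowest ratio of 24.6. The same ratio was 20.6 for Calb2, 14.1 for Dlx2, 12.8 for Dlx1, 11.6 for Ndnf and 9.64 for Dlx5. At the other end it was 1.35 for Gabbr1, 1.40 for Nlgn2, which encodes an adhesion protein of inhibitory synapses, and 1.51 for Gphn, which encodes their scaffold gephyrin. Among the 12521 genes with a median of at least 100, the ratio had a median of 1.74, and 8 of the 30 members (26.7%) exceeded its 95th percentile of 4.58, against 5.0% of all these genes.

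A few libraries held most of the extremes. Het vehicle males 3 and 4 each held the highest or lowest value of 10 members among the 59 libraries, Het fluoxetine males 3 and 4 those of 8 and 7, and Het lithium female 1 those of 7. Het fluoxetine male 3 had the highest Gabbr1, Gabbr2, Gphn, Nlgn2 and Lhx6, and Het fluoxetine male 4 the lowest Gabra2, Gabra3, Gabra4, Gabra5, Gabrd, Lamp5 and Erbb4. Recovered read totals ran between 24391022 and 33842466 per library, with a median of 27601196. The cortical projection neuron marker Slc17a7 was present in every library, between 24775 and 55403 normalised counts. Markers of mitral and tufted cells, the projection neurons of the olfactory bulb, were present at very unequal levels, with Cdhr1 between 116 and 10586. Dyrk1a itself, whose reads do not tell the alleles apart in these counts, lay between 2141 and 4214 normalised counts in Het libraries and between 2066 and 2327 in WT libraries. Its log2 difference with vehicle was 0.06 (limma, adjusted p = 0.451). Over all drugs, a comparison added after values were seen, it was 0.13 ± 0.03 (limma, adjusted p = 0.00768). Het and WT means were 2326 and 2232 with vehicle, 2342 and 2190 with lithium, and 2598 and 2160 with fluoxetine. The Het fluoxetine mean had an SD of 648 and stood above the median of 2348. The mRNA level of Dyrk1a was thus not lower in Het mice and does not check the genotype labels.

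The first comparison set Het against WT vehicle mice. In vehicle males nearly all members differed: the genes of GABA synthesis, the Dlx genes, Sp9, Calb2, Reln and Ndnf were higher in Het males, and most receptor subunits with Lhx6, Pvalb, Lamp5 and Prox1 were lower. Of the 30 members 14 were higher and 12 lower at an adjusted p under 0.05 (86.7%), where 36.7% of all genes tested were called in this comparison, 16.7% higher and 20% lower. The members' median log2 fold change was 0.08, against -0.01 for all genes. In vehicle females no member was called, where 0.0% of all genes were called, 631 had an unadjusted p under 0.05, and edgeR called 0 with 603 under 0.05. Fold changes are on the log2(normalised count + 1) scale, p-values come from limma with Benjamini-Hochberg adjustment over the 17901 genes, and ± is the standard error unless SD is written.

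Among the genes that make and load GABA, Gad1 (ENSMUSG00000070880, chromosome 2, 70553072 to 70602014) had 9818, 12473, 15412, 26576 and 26886 normalised counts in Het vehicle males, against 7199.8, 7456, 7715, 7732 and 8368 in WT vehicle males. Every Het male lay above every WT male, with means of 18233 ± 8007 and 7694 ± 435 (SD, n = 5 each). The log2 fold change was 1.13 ± 0.24 (limma, adjusted p = 0.000556). Slc32a1 counted 1685, 1981, 2833, 3468 and 3507 in Het males and 1348, 1372, 1386, 1390.4 and 1476 in WT males, again without overlap, and rose by 0.89 (adjusted p = 0.000589). Gad2, the second GABA-synthesising enzyme, rose by 0.45 (adjusted p = 0.00335), with 5103 to 8224 in Het males and 4603 to 5122 in WT males, which overlapped.

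The transcription factors held large changes in both directions. Sp9 (ENSMUSG00000068859, chromosome 2, 73271925 to 73284706), a zinc finger factor of striatal and olfactory interneuron precursors, had 322, 510.0, 831, 1249 and 1287 normalised counts in Het vehicle males, against 90.2, 109, 119, 119.8 and 124 in WT males. The groups were far apart and the Het males spread widely, and the log2 fold change was 2.72 ± 0.54 (limma, adjusted p = 0.000489). Dlx1 (ENSMUSG00000041911) had 2024, 3410.1, 5073, 7206 and 7530.3 in Het males and 795, 918, 957, 986 and 1369 in WT males. Its log2 fold change was 2.19 ± 0.46 (adjusted p = 0.000556), with no overlap.

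Dlx2, Dlx5 and Dlx6 also rose, by 2.18, 1.95 and 1.31 on the log2 scale, and none of these overlapped between the genotypes. Lhx6 (ENSMUSG00000026890) moved the other way, with 152, 174, 236, 337 and 475 in Het males and 447, 498, 505, 523 and 538 in WT males. All but 1 Het male lay below all WT males, and the log2 fold change was -0.996 ± 0.18 (limma, adjusted p = 0.000399). Prox1 had 154, 175, 213, 286 and 288 in Het males and 305, 310.0, 359.9, 360.3 and 367 in WT males. It was the only member whose Het males all lay below the WT males, and it fell by 0.65 (adjusted p = 0.00103).

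The class markers split. Calb2 (ENSMUSG00000003657), which encodes the calcium-binding protein calretinin, had 1508, 3599, 6062, 8639.9 and 8650.2 normalised counts in Het vehicle males, against 429, 454, 475, 592 and 1317 in WT males. The groups did not overlap, though the highest WT male came close to the lowest Het male, and the log2 fold change was 3.01 ± 0.68 (limma, adjusted p = 0.000822). Pvalb (ENSMUSG00000005716), which encodes parvalbumin and marks fast-spiking interneurons, had 192, 199, 300.0, 524 and 664 in Het males and 553, 576, 600.1, 638 and 739.8 in WT males. One Het male lay within the WT range, and the log2 fold change was -0.90 ± 0.22 (adjusted p = 0.00142).

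Reln and Ndnf, genes of layer 1 interneurons, rose by 1.09 and 1.39 in Het males without overlap, while Lamp5, a marker of neurogliaform cells that projection neurons also express, fell by 0.68. Across all 59 libraries Reln and Ndnf also followed the mitral and tufted markers (Pearson's r = 0.939 and 0.883). Which cells carried their rise was not tested. Adarb2, a gene of caudal eminence interneurons, rose by 1.07. Erbb4, the neuregulin receptor of interneurons, differed by 0.09 ± 0.10 and was not called.

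The receptor subunits were mostly lower. Gabbr2 (ENSMUSG00000039809) had 5047, 5189, 7677, 9568 and 11091 normalised counts in Het vehicle males, against 10869, 11817, 11936, 11949 and 13038 in WT males. The highest Het male reached the lowest WT male, and the log2 fold change was -0.70 ± 0.15 (limma, adjusted p = 0.000556). Its partner Gabbr1 fell by 0.22. Of the 9 GABA-A subunits 6 fell: Gabrb1 by 0.54, Gabrg3 by 0.53, Gabra4 by 0.48, Gabrd by 0.43, Gabrg1 by 0.41 and Gabra3 by 0.29.

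Gabra5 (ENSMUSG00000055078), the subunit of extrasynaptic receptors best known from the hippocampus, was the only GABA-A subunit called higher. Gabra2 differed by 0.08 ± 0.12 and was not called. Gabrb2 was not called either, with 2873 to 4650 normalised counts in Het vehicle males and 2933 to 5442 in WT males. Gabra5 had 2093, 2209, 2602, 3456 and 3869 normalised counts in Het vehicle males and 1731, 1806, 1808, 1944 and 2128 in WT males. One Het male lay inside the WT range, and the log2 fold change was 0.56 ± 0.11 (limma, adjusted p = 0.00045). Its neighbour Gabrg3 fell, so the 2 adjoining genes moved in opposite directions. At the inhibitory synapse Gphn rose by 0.16, and Nlgn2 differed by -0.10 (adjusted p = 0.0522).

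In all, 11 members lay wholly above the WT males in Het males and 1 wholly below (40.0% of members), where 12% of all genes tested did not overlap. In females none of the 30 did, where 0.704% of all genes did not overlap. Sp9 in females had 89.8, 159.5, 367, 452 and 599 normalised counts in Het mice and 113, 129, 305, 568 and 699 in WT mice. Gad1 in females had 7684, 7983, 11523, 12107 and 15002 in Het mice and 7693, 7852, 10771, 13443 and 16437 in WT mice. Pvalb in females had 470.1, 578, 597, 672 and 814 in Het mice and 413, 438, 528, 667 and 688 in WT mice. In each of these genes the female genotypes overlapped over most of their ranges.

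**Figure D1:**
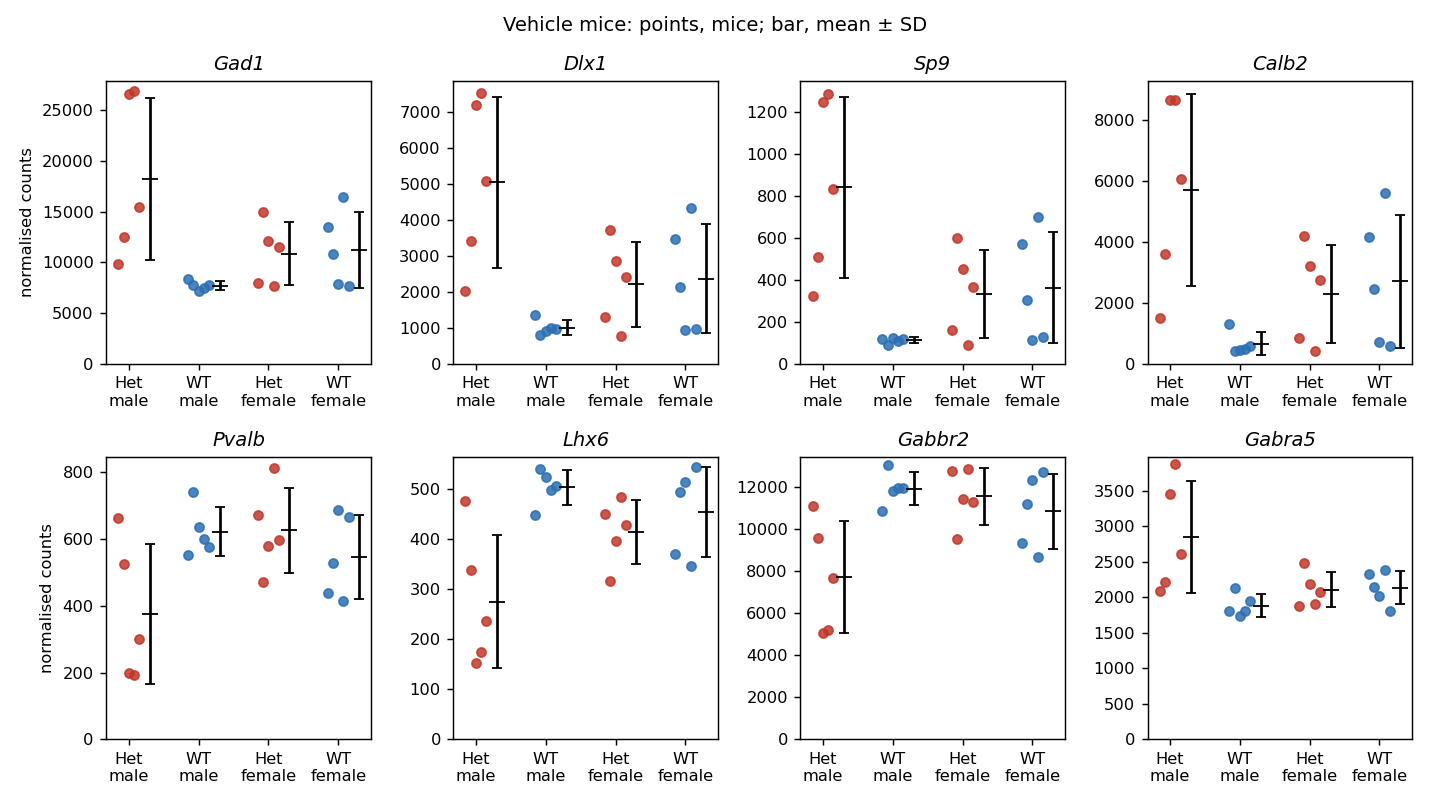
Normalised counts of 8 members in vehicle mice, with Het left of WT within males and within females; points are mice (5 per group), bars the mean with SD. Het males lie above WT males for Gad1, Dlx1, Sp9 and Calb2 and mostly below them for Pvalb, Lhx6 and Gabbr2, while the female groups overlap for every gene shown.

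The test of the difference between the sexes (female minus male genotype effect) called 19 members, 7 positive and 12 negative (63.3%), where 16.0% of all genes were called, 9.7% positive and 6.26% negative. It was -2.78 ± 0.76 for Sp9 (limma, adjusted p = 0.0181) and 1.10 ± 0.31 for Pvalb (adjusted p = 0.0185). Over both sexes 15 members were called with vehicle, 9 higher and 6 lower, where 13.1% of all genes were called, 6.03% higher and 7.12% lower, with a members' median of -0.03 and -0.00 for all genes. The higher ones were Gad1, Slc32a1, Gabra5, Calb2, Dlx1, Dlx2, Dlx5, Sp9 and Adarb2, and the lower ones Gabra4, Gabrb1, Gabrg3, Gabbr2, Lhx6 and Prox1. Leaving out 1 of the 20 libraries moved this count to between 0 and 23 members: 0 were called without Het vehicle male 3, without Het vehicle male 4 or without WT vehicle female 5. It was 1 without Het vehicle female 2, 3 or 5 or WT vehicle female 3, 2 without WT vehicle male 2, and 6 to 8 without WT vehicle female 2, Het vehicle male 5 or WT vehicle males 3, 4 or 5, while it was 23 without Het vehicle male 1. The sex difference also fell to 0 calls without Het vehicle male 3, Het vehicle male 4 or WT vehicle female 4. It fell to 12, 3 and 6 without Het vehicle female 1, Het vehicle female 4 and WT vehicle female 1. The count in males stayed between 22 and 28 whichever library was left out. Het vehicle males 3 and 4, which held the most extremes, were not left out together, so that range does not cover their joint part. With only the groups compared in the fit, 0 members were called over both sexes and 0 in the sex difference, where 0.776% and 0.0% of all genes were called.

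Markers of olfactory bulb cells moved with these members. In vehicle males all 5 of 5 mitral and tufted cell markers (Doc2g, Cdhr1, Eomes, Tbx21, Shisa3) were called higher in Het, with a median log2 fold change of 4.23, and so were all 5 of 5 markers of bulb interneurons (median 2.52) and 5 of 7 of migrating neuroblasts (median 0.85). Of 10 cortical projection neuron markers 8 were lower and 1 higher, with a median of -0.63. Of 8 striatal neuron markers 1 was higher and 2 lower, of 7 astrocyte markers 2 were lower, and of 7 oligodendrocyte markers 0 were called. The summed level of the 5 mitral and tufted markers ranged between 3325 and 22913 normalised counts in Het vehicle males and between 285 and 2319 in WT vehicle males, without overlap. In females it ranged between 421 and 11156 in Het and between 540 and 13532 in WT. In bulk tissue, fewer cells of a type and less RNA per cell cannot be told apart.

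With the mean log level of the 5 markers as a covariate, no member was called in vehicle males, where 0.0% of all genes were called and 1544 had an unadjusted p under 0.05. The log2 fold changes became 0.24 for Gad1, 0.08 for Calb2, 0.28 for Dlx1, 0.51 for Sp9, -0.45 for Lhx6 and -0.26 for Pvalb, each with an adjusted p of at least 0.574. This fit took 1 slope on the marker level from the spread inside all 12 groups. The marker level did not overlap between the male genotypes, so the adjusted values rest on that slope holding across the gap between them. Whether it does was not tested. Over both sexes and in the sex difference 0 members were called with the covariate, where 0.0112% and 0.0% of all genes were called.

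**Figure D2:**
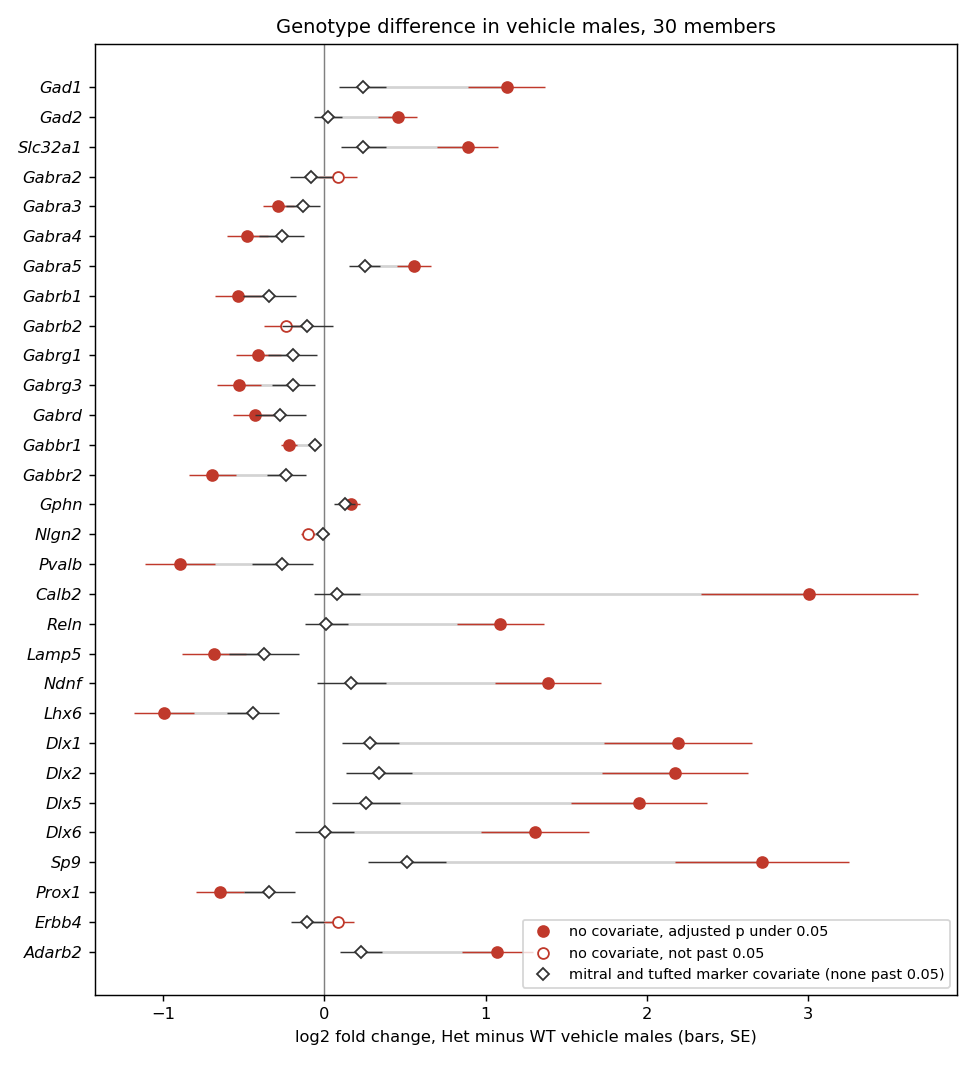
Log2 fold change, Het minus WT vehicle males, for the 30 members without a covariate (circles, filled where the adjusted p is under 0.05) and with the mitral and tufted marker mean as a covariate (open diamonds), with standard errors. Without the covariate 26 members are called, and with it none is.

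The other genes of the pathway, which are not members, also moved in both directions in vehicle males, where 36.7% of all genes were called, 16.7% higher and 20% lower. Of 8 genes of GABA transport, breakdown and chloride balance, 3 rose and 1 fell: the GABA transporter gene Slc6a11 rose by 1.31 and the chloride exporter gene Slc12a5 fell by 0.29. Of 16 inhibitory synapse partners 3 rose and 7 fell, with Mdga1, which encodes a neuroligin-binding protein, up by 1.60 and Kctd16, an auxiliary GABA-B subunit gene, down at -1.03. Of 28 other interneuron genes 6 rose and 15 fell, with Sst, the somatostatin gene, at -1.10 and Npas1 at -1.04. With the covariate none of these named genes had an adjusted p under 0.574.

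Across all 59 libraries the members followed the mitral and tufted marker mean to unequal degrees. The relation was tested for 30 members, and 29 had an unadjusted permutation p under 0.05 with both Pearson's r and Spearman's rho (96.7%), where 60.6% of all 17901 genes did. The exception was Gabra2 (rho 0.192, permutation p = 0.144). The size of r was at least 0.5 for 20 of 30 members (66.7%) and for 32.5% of all genes, with a median size of 0.729 among members and 0.353 among all genes. Calb2 had r = 0.988 and rho = 0.984, each with a permutation p of 1e-05, the smallest that 100000 permutations can give, and adjusted p-values of 1.5e-05 and 1.2e-05. Gabbr1 had r = -0.831 and rho = -0.937 and Pvalb r = -0.698 and rho = -0.797, with the same p-values. At the weak end by Pearson's r, with a size up to 0.41, were Gabrb2 (-0.288), Gphn (0.295), Gabrd (-0.300), Gabra2 (0.311), Gabrb1 (-0.407) and Erbb4 (0.410). By rank not all of these were weak: rho was -0.498, 0.541, -0.707, 0.192, -0.740 and 0.349 in the same order. Without the 2 libraries farthest from the median, r was 0.989 for Calb2, -0.822 for Gabbr1 and -0.678 for Pvalb.

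The relation also held inside the 12 groups, where the sign of r stayed the same for all 30 members and r was 0.984 for Calb2, -0.783 for Gabbr1 and -0.667 for Pvalb. At the widest gap in the marker mean the libraries divide into 45 above and 14 below. Above it the sign was kept by all 30 members, and r was 0.988 for Calb2, -0.864 for Gabbr1 and -0.764 for Pvalb. Below it 22 members kept the sign, and r was 0.724 for Calb2, -0.291 for Gabbr1, -0.554 for Pvalb, 0.151 for Dlx1 and 0.11 for Sp9. Among those that changed sign were Gabra5, with r = -0.581 below and 0.737 above, Gabbr2, with 0.357 below and -0.768 above, and Lhx6, with 0.191 below and -0.753 above. Marker level and members share their libraries, and these values describe covariation across libraries.

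**Figure D3:**
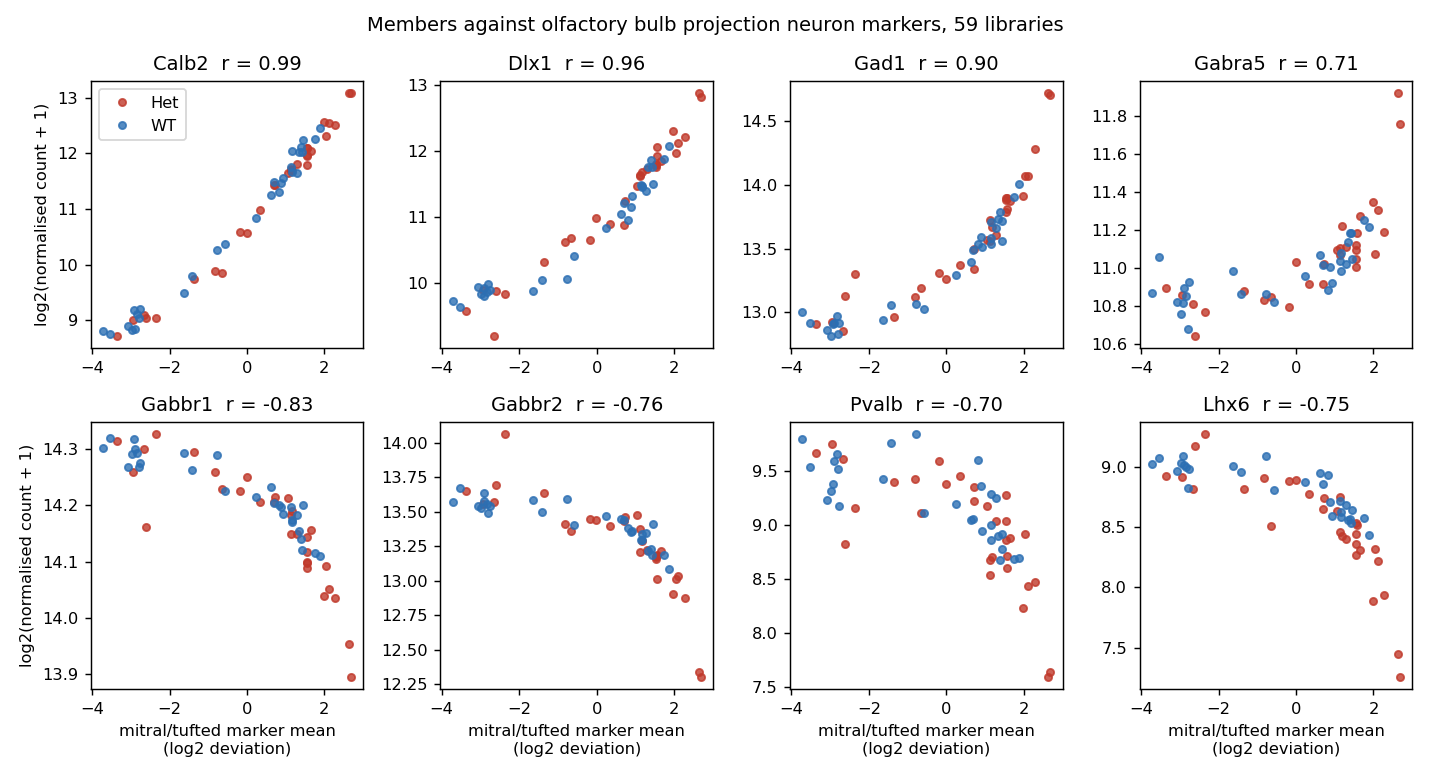
Log2 level of 8 members against the mean log2 deviation of 5 mitral and tufted cell markers, one point per library (59), coloured by genotype. Over all 59 libraries Calb2, Dlx1, Gad1 and Gabra5 have a positive r and Gabbr1, Gabbr2, Pvalb and Lhx6 a negative one.

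Over all 3 treatments, Het against WT mice differed in a comparison added after values were seen. Here 14 members were called, 2 higher and 12 lower (46.7%), where 21.4% of all genes were called, 8.97% higher and 12.4% lower, and the members' median was -0.04 against 0.00 for all genes. Of the 9 GABA-A subunits 7 were lower in Het mice: Gabrd by -0.23 ± 0.06 (limma, adjusted p = 0.00883), Gabrg3 by -0.22, Gabrb1 by -0.21, Gabra4 by -0.19, Gabrb2 by -0.16, Gabrg1 by -0.15 and Gabra3 by -0.11. Lhx6 at -0.30, Lamp5 at -0.27, Pvalb at -0.26, Prox1 at -0.20 and Gabbr1 at -0.06 were also lower, and Gad1 at 0.27 and Dlx2 at 0.52 were higher. The mitral and tufted markers had a median of 0.84, with 0 of 5 called. With these markers as a covariate no member was called, where 1.06% of all genes were called, and leaving out 1 library gave 7 to 21 calls. Under lithium alone and under fluoxetine alone, no member was called between the genotypes, where 0.0112% of all genes were called in each and 3282 and 2623 genes were under 0.05 before adjustment. In edgeR those comparisons called 2 and 43 genes. Under fluoxetine Gabrd differed by -0.42 (limma, adjusted p = 0.149) and was called in 3 of 30 alternatives. Over those alternatives the difference ran from -0.50 to -0.21. Het fluoxetine males 4 and 3 had the lowest Gabrd values of all libraries, 642 and 690.2 normalised counts.

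Lithium against vehicle was compared within each genotype, and no member was called in Het or in WT mice, where 0.497% and 0.162% of all genes were called. Over both genotypes, a comparison added after values were seen, Pvalb was the 1 member called (3.33%), where 2.12% of all genes were called, 1.16% higher. That share of members is near the background. Pvalb had a lowest, median and highest value of 356, 638 and 859 normalised counts in Het lithium mice and 192, 551 and 814 in Het vehicle mice. In WT mice the values were 609, 774 and 917 with lithium and 413, 588 and 739.8 with vehicle. Lithium medians were the higher ones in both genotypes, and the ranges overlapped in both.

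By sex, Pvalb averaged 639 ± 183 in Het lithium males and 376 ± 210 in Het vehicle males, and 820 ± 107 in WT lithium males and 621 ± 73.3 in WT vehicle males (SD, n = 5 each). In females it averaged 605 ± 158 in Het lithium and 626 ± 127 in Het vehicle mice, and 709 ± 89.8 in WT lithium and 547 ± 127 in WT vehicle mice. So the mean was higher with lithium in 3 of the 4 pairs of groups. Pvalb rose by 0.40 ± 0.11 over both genotypes (limma, adjusted p = 0.032). Taken singly it was 0.41 in Het (adjusted p = 0.276) and 0.40 in WT (adjusted p = 0.479), and the difference between them was 0.01 ± 0.22 (adjusted p = 1.0).

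With lithium the mitral and tufted markers had a median log2 fold change of 0.03 and 0 of 5 were called. Their summed levels were 447 to 16714 in Het lithium and 421 to 22913 in Het vehicle mice. In WT mice they were 378 to 8308 with lithium and 285 to 13532 with vehicle. The median of 0.03 averages opposite shifts. From vehicle to lithium the mean log2 deviation of the markers fell from 1.72 to 0.38 in Het males. It also fell from -0.12 to -0.48 in WT females. It rose from -2.58 to -1.59 in WT males and from -0.26 to 0.46 in Het females. Whether these shifts enter the Pvalb values was not tested beyond the covariate. With the markers as a covariate Pvalb was 0.40 ± 0.08 (limma, adjusted p = 0.00146). The call was lost (adjusted p up to 0.062) without Het lithium female 1, Het lithium female 2, Het lithium male 5, Het vehicle female 2, Het vehicle male 3, Het vehicle male 4 or WT vehicle female 4. It was also lost with only the compared groups in the fit (adjusted p = 0.0548).

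Gabra5 differed by -0.17 ± 0.05 with lithium (limma, adjusted p = 0.0947) and was called in 5 of 51 alternatives, among them the marker covariate at -0.17 (adjusted p = 0.0104). Its lowest, median and highest values were 1776, 1992 and 2331 in Het lithium mice and 1880.3, 2199 and 3869 in Het vehicle mice. In WT mice they were 1639, 1878 and 2098 with lithium and 1731, 1984 and 2379 with vehicle. Both ranges overlapped. With the covariate 3 members were called, where 3.87% of all genes were called: Pvalb, Gabra5 and Adarb2, the last at -0.18 (adjusted p = 0.0486). Without the covariate 1 of the 28 other interneuron genes was called (3.57%, where 2.12% of all genes were), a share near the background. It was Crh, which encodes corticotropin-releasing hormone, at -0.32 ± 0.06 (limma, adjusted p = 0.00182).

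Fluoxetine against vehicle called 1 member in Het mice, Gabrd (3.33%), where 4.27% of all genes were called, 2.06% lower. That share is near the background. Gabrd (ENSMUSG00000029054, chromosome 4, 155384980 to 155398112) had a lowest, median and highest value of 642, 1230.2 and 1589 normalised counts in Het fluoxetine mice, against 1008, 1547 and 1853 in Het vehicle mice. The ranges overlapped, and the 2 lowest of all were Het fluoxetine male 4 at 642 and male 3 at 690.2. The log2 fold change was -0.35 ± 0.10 (limma, adjusted p = 0.0302). Without both males it was -0.15 (adjusted p = 0.472), and it was lost without either of them, without Het fluoxetine female 3 or without Het fluoxetine female 5. The mitral and tufted markers had a median of -0.55 here with 0 of 5 called, and summed levels of 494 to 14627 in Het fluoxetine and 421 to 22913 in Het vehicle mice. This median averages opposite shifts in the sexes. From vehicle to fluoxetine the mean log2 deviation of the markers fell from 1.72 to -0.97 in Het males. In Het females it rose from -0.26 to 1.42.

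In WT mice no member was called with fluoxetine, where 0.447% of all genes were called. Calb2 had a lowest, median and highest value of 1823, 4163 and 4887 normalised counts in WT fluoxetine mice, against 429, 657 and 5608 in WT vehicle mice. All WT fluoxetine mice lay above the vehicle median, inside the vehicle range. The log2 fold change was 1.77 ± 0.49 (limma, adjusted p = 0.074), beside 1.05 for Dlx1 and 1.18 for Sp9. The markers had a median of 2.44, with 0 of 5 called, and summed levels of 4050 to 11463 in WT fluoxetine and 285 to 13532 in WT vehicle mice. Their part in the result was not tested beyond the covariate, under which 0 members were called, where 0.128% of all genes were called. With only the WT fluoxetine and vehicle groups in the fit 11 members were called, where 6.43% of all genes were called.

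Over both genotypes, again added after values were seen, fluoxetine called 1 member, Gabrb2, a subunit of most synaptic GABA-A receptors (3.33%), where 3.09% of all genes were called, 1.64% lower. This share, too, is near the background. Gabrb2 had a lowest, median and highest value of 1877, 3591 and 4241 normalised counts in Het fluoxetine and 2873, 4249.8 and 4833 in Het vehicle mice. In WT mice the values were 3275, 3723 and 4562 with fluoxetine and 2933, 4397 and 5442 with vehicle. Fluoxetine medians were the lower ones in both genotypes and the ranges overlapped. The log2 fold change was -0.23 ± 0.07 (limma, adjusted p = 0.0477), and -0.17 without Het fluoxetine males 3 and 4 (adjusted p = 0.142). The call held in 11 of the 39 fits that left out 1 library, and in 18 of all 50 alternatives. Gabrd differed by -0.22 (adjusted p = 0.0707).

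The difference between the genotypes in the drug effect called 0 members for lithium and 0 for fluoxetine, where 0.0% of all genes were called in each, while limma put 497 and 3917 genes, and edgeR 499 and 4043, under 0.05 before adjustment, and edgeR also called 0. For Gabrd and fluoxetine it was -0.27 (adjusted p = 0.243). The drug comparisons share the vehicle mice with the genotype comparison, so a high or low vehicle library enters both.

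**Figure D4:**
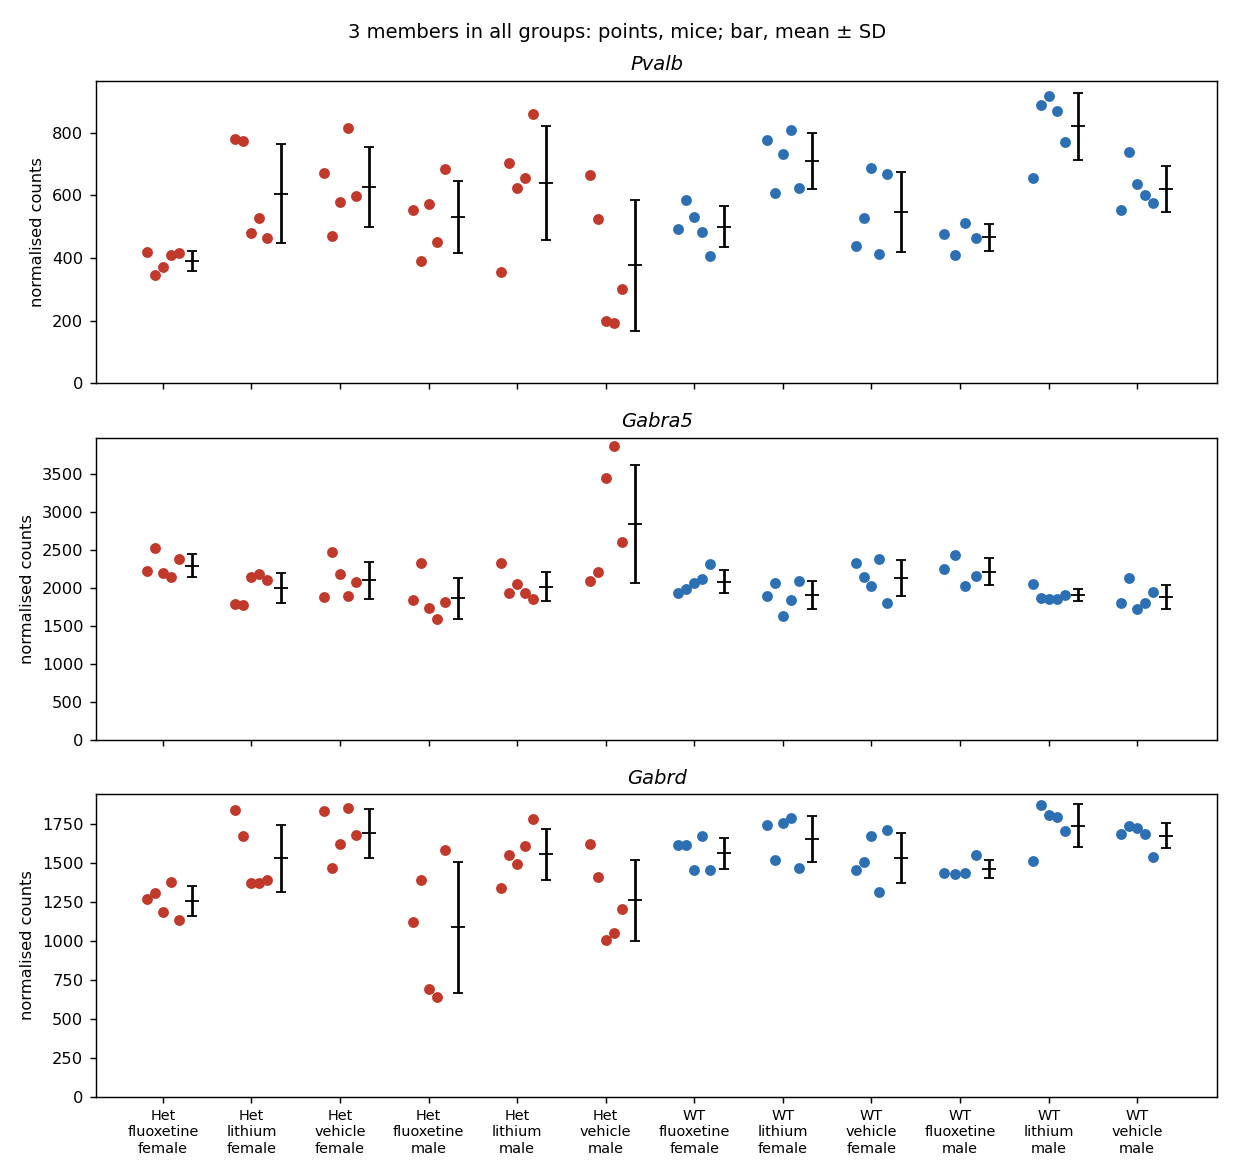
Normalised counts of Pvalb, Gabra5 and Gabrd in all 12 groups, points for mice and bars for the mean with SD. Pvalb is higher on average with lithium than with vehicle except in Het females, and the 2 low Gabrd values in Het fluoxetine males are 642 and 690.2.

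**Figure D5:**
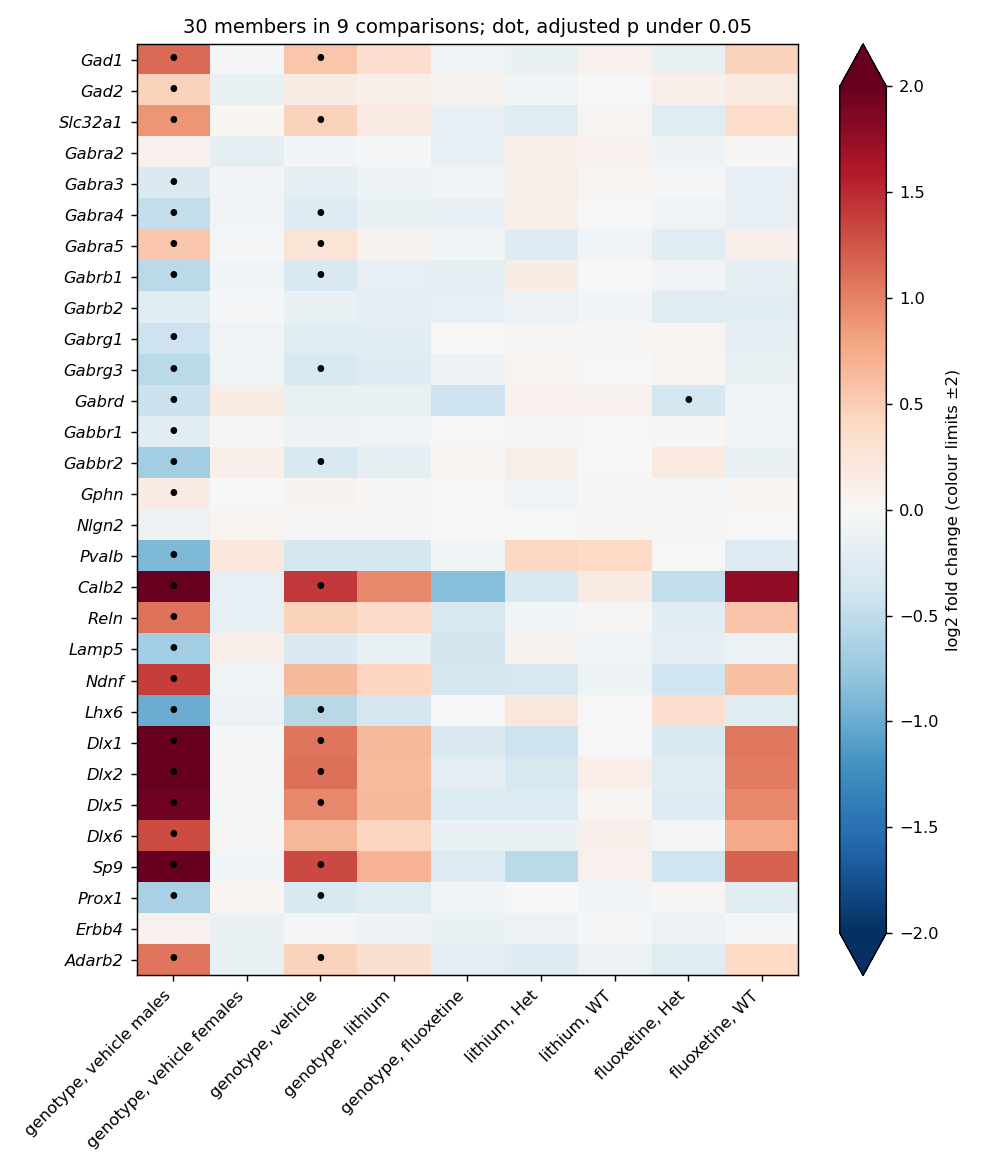
Log2 fold change of the 30 members in 9 comparisons (Het minus WT, or drug minus vehicle), on a colour scale, with a dot where the adjusted p is under 0.05. The genotype difference in vehicle males holds 26 called members and that in vehicle females none.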

How the data were processed

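RNA sequencing of prefrontal cortex was analysed from the authors' deposited table of normalised counts (a signal scaled by a size factor per library). Salmon 0.11.2, DESeq2 1.19.11, R 3.6.0 and the build GRCm38 are named in the submitters' processing notes, without their roles. Whole reads were recovered from the steps in each library's values: at least 100.0% of values were whole within 0.01, and 3 libraries had steps near 1. All 59 libraries entered, and none of the table's value columns was without a sample. Library totals of 24391022 to 33842466 limit the precision of the low members.

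The values were tested as log2(value + 1) with limma 3.58.1 in R 4.3.3, with 12 group means, a mean-variance trend and 47 residual degrees of freedom, on 17901 genes with at least 10 in at least 4 libraries. P-values were adjusted by Benjamini and Hochberg over all genes in each comparison, and an adjusted p under 0.05 was called. edgeR 4.0.16 was run on recovered counts as an alternative. Alternatives also changed the pseudocount, filter, scaling, libraries and covariates. The text names every member, up to 4 called genes each way by smallest p from each other list, and Dyrk1a as the mutated gene. The members and lists were chosen with earlier results of these data known. Replicate pairs differed by more than sampling noise (116 pairs). Replicate numbers did not pair libraries. Some genes of the other lists are not reported here.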

Additional observations from a re-analysis of the deposited data

Results flagged for a closer look

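Of 360 sets of values, each 1 member in 1 group of 4 or 5 libraries, 35 held a library that stood far from the others, where chance flags about 1 in 20 groups. Het fluoxetine male 2 stood above the other males of its group for Gad1 (14372 normalised counts), Slc32a1 (2356), Calb2 (4369), Reln (4107), Dlx1 (3888), Dlx2 (638), Sp9 (529.8) and Adarb2 (1320.4). WT lithium male 1 stood above its group for Gad1 (12319), Gad2 (6015), Gabra5 (2055), Ndnf (1289), Dlx1 (2277), Dlx2 (435), Dlx5 (310.1), Dlx6 (190.0), Sp9 (318) and Adarb2 (1025). The mitral and tufted marker mean deviated by 1.56 on the log2 scale in Het fluoxetine male 2 and by 0.89 in WT lithium male 1.

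The other libraries that stood apart did so for 1 to 3 members each. Het animals among them were fluoxetine male 4 for Gabra3 (3527), lithium female 1 for Lamp5 (7142), and vehicle female 2 for Gabra2 (2504) and Erbb4 (3030.5). WT fluoxetine animals were female 4 for Gabrg1 (595) and Erbb4 (2227), female 5 for Gad2 (6574), male 3 for Nlgn2 (7238), and male 4 for Gabra4 (4082), Gabrd (1551) and Lamp5 (6146). WT lithium female 5 stood apart for Erbb4 (3168). WT vehicle animals were female 4 for Gabra4 (3207), male 1 for Calb2 (1317) and Erbb4 (2197), male 2 for Gabra3 (6479) and male 5 for Gabrd (1541).

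The genotype effect with vehicle differed between the sexes for 19 members, where 16.0% of all genes were called. The difference was tested as the female minus the male effect (limma, adjusted p under 0.05 for each). It was negative for Calb2 (-3.18), Sp9 (-2.78), Dlx1 (-2.24), Dlx2 (-2.15), Dlx5 (-1.99), Ndnf (-1.47), Reln (-1.26), Adarb2 (-1.22), Gad1 (-1.16), Slc32a1 (-0.85), Gad2 (-0.61) and Gabra5 (-0.58). It was positive for Pvalb (1.10), Lhx6 (0.88), Gabbr2 (0.80), Lamp5 (0.78), Prox1 (0.68), Gabrd (0.57) and Gabbr1 (0.24). In the same test the 5 mitral and tufted markers had a median of -4.38, and with them as a covariate 0 members were called. No member was called with only the groups compared in the fit. The same held without Het vehicle male 3, Het vehicle male 4 or WT vehicle female 4.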

How the results depend on the processing

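The count of members called in vehicle males was within 1.5 times of 26 with the other pseudocount, filters, scaling, edgeR and only the groups compared, and between 22 and 28 when 1 library was left out. Leaving out 1 library gave 0 to 23 calls for genotype with vehicle, 0 to 25 for the sex difference, 0 to 3 for fluoxetine in Het, 0 to 5 for fluoxetine in WT and 0 to 2 for lithium in Het. It gave 0 to 1 for genotype with fluoxetine, 0 to 11 for the fluoxetine by genotype difference (11 without Het fluoxetine male 2 or Het vehicle male 1), 0 to 2 for lithium and for fluoxetine over both genotypes, and 7 to 21 for genotype over all drugs. With only the groups compared the counts were 0 for genotype with vehicle, the sex difference, fluoxetine in Het and both pooled drug comparisons, and 11 for fluoxetine in WT (6.43% of all genes). edgeR called 2 for fluoxetine in Het, where 6.76% of all genes were called. Without Het fluoxetine males 3 and 4 the counts were 0 for fluoxetine in Het and over both genotypes and 1 for fluoxetine in WT, where 0.425%, 2.36% and 2.92% of all genes were called.

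With the mitral and tufted covariate the counts were 0 for genotype with vehicle, in vehicle males, by sex and over all drugs, 1 for lithium in Het (0.81% of all genes called), 2 for fluoxetine in Het (5.79%) and 3 for lithium over both genotypes (3.87%). With the covariate and without those males they were 0 for the same 4 genotype comparisons and for fluoxetine in Het and over both genotypes, 1 for lithium in Het (2.41% of all genes) and in WT (1.33%), and 3 for lithium over both genotypes (8.25%). With the summed level added they were 0 for genotype with vehicle, in vehicle males and by sex, 1 over all drugs (0.743% of all genes), 2 for genotype with fluoxetine (1.17%), 2 for lithium in Het (1.18%), 1 for lithium in WT (0.575%), 5 for fluoxetine in Het (9.44%), 3 for lithium (4.3%) and 4 for fluoxetine (10.5%) over both genotypes. The causes of these moves were not tested.

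These log2 values changed sign. With the covariate they were, for genotype with vehicle, Calb2 -0.00037, for fluoxetine in Het Dlx6 0.11, for the sex difference Dlx6 0.058, and for genotype over all drugs Reln -0.048 and Ndnf -0.0036. For fluoxetine in WT they were Gad1 -0.062, Slc32a1 -0.0055, Reln -0.052, Ndnf -0.10, Dlx1 -0.060, Dlx2 -0.033, Dlx5 -0.016, Dlx6 -0.0026, Sp9 -0.097 and Adarb2 -0.092. With the covariate and without those males they were Calb2 -0.0092 for genotype with vehicle, Pvalb 0.0066 and Dlx6 0.065 for fluoxetine in Het, Gad2 -0.016, Reln -0.020 and Dlx6 -0.022 in vehicle males, Dlx6 0.084 for the sex difference and Reln -0.073 over all drugs. For fluoxetine in WT they were Gad1 -0.086, Slc32a1 -0.018, Reln -0.070, Ndnf -0.063, Dlx1 -0.054, Dlx2 -0.048, Dlx5 -0.028, Dlx6 -0.017, Sp9 -0.11 and Adarb2 -0.090.

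With the summed level added they were, for genotype with vehicle, Gabbr1 0.00061, Calb2 -0.068, Ndnf -0.045, Dlx6 -0.063 and Adarb2 -0.024, and in vehicle males Gad2 -0.080, Nlgn2 0.0057, Pvalb 0.0089, Calb2 -0.086, Reln -0.18, Ndnf -0.086, Dlx5 -0.0065 and Dlx6 -0.22. For the sex difference they were Gad1 0.018, Slc32a1 0.036, Calb2 0.036, Reln 0.081, Ndnf 0.081, Dlx2 0.029, Dlx5 0.062 and Dlx6 0.32. They were Dlx6 0.26 for fluoxetine in Het, Adarb2 -0.0059 for fluoxetine in WT, and Reln -0.10, Ndnf -0.078 and Dlx6 -0.0099 over all drugs. Without Het fluoxetine males 3 and 4, Pvalb was 0.0069 and Dlx6 0.064 for fluoxetine in Het. Leaving out 1 library gave -0.10 to 0.12 for Pvalb and -0.18 to 0.047 for Dlx6 in that comparison. The covariate with those males left out, the summed level and the 3 pooled comparisons were chosen after seeing the data.

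Replicate numbers were shared between groups, but same-numbered libraries did not deviate together (r between -0.59 and 0.39). With the replicate number as a block, 11 members were called for genotype with vehicle, 26 in vehicle males, 18 in the sex difference and 1 for fluoxetine in Het. The share of all genes called in this fit is not given, so these counts show only how far the main counts moved. Every member had at least 10 normalised counts in all 59 libraries, and read totals limit the precision of low ones such as Dlx6 most.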
